A study of Rattus norvegicus with 8 samples.

Results

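The regenerating liver 8 h after partial hepatectomy was set against the liver of unoperated 12-week rats, gene by gene. The comparison used 4 of the 8 arrays of the series, 2 of each kind, and covered all 14511 genes that the arrays measured under a single symbol. Each gene was represented by the probe set with the highest mean signal over the 8 arrays. All animals were described as healthy Wistar rats, and the unoperated rats of 2, 4 and 12 weeks as female. The operation removed 2/3 of the liver mass by taking the lateral lobes, and the remnant was collected after 8 h of post-operative care. Unoperated livers of 4 and 2 weeks, also with 2 arrays each, shared the model and are used below to place a level. The labels used here state neither the age of the operated rats nor the hour of the day at which any liver was taken, and no sham-operated animals were analysed here. The description as female was given for the unoperated rats only. Surgery itself, loss of liver mass, age, hour of collection and any difference in sex can therefore not be told apart in this comparison. Titles speak of biological replicates and the design text of processing in duplicate, so p-values measure the spread between arrays, which may be partly technical. Whole liver was measured, in which fewer cells of a type and less RNA per cell cannot be told apart.

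As background, the remnant liver after resection first passes through a priming phase. Tumour necrosis factor and interleukin 6 act on hepatocytes, the interleukin 6 family signals through the shared receptor chain gp130 (Il6st), JAK kinases and the transcription factor STAT3, and STAT3 induces acute-phase proteins and its own inhibitor Socs3. AP-1 factors and Myc are induced early, hepatocyte growth factor and ligands of the epidermal growth factor receptor then carry cells through G1, and hepatocyte DNA synthesis in the rat follows later. During this time the remnant keeps up blood glucose, clearance and protein secretion.

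Signals are RMA values on a log2 scale, so that 1 unit is a 2-fold difference. Hepatocyte markers were high throughout, and their mean level over 11 genes lay between 12.38 and 12.66 on all 8 arrays, with Alb at 14.17 and 14.10 after hepatectomy and 14.16 and 14.19 at 12 weeks. Replicate arrays were closest after hepatectomy (r = 0.98 across genes, 432 genes at least 2-fold apart) and furthest apart at 12 weeks (r = 0.952, 1838 genes), where genes are not independent replicates. Olfactory and vomeronasal receptors have no known role in hepatocytes, and the median signal of their 1240 genes stood at 4.64 and 4.16 on the hepatectomy arrays, 4.72 and 3.90 on the 12-week arrays, and 3.99 to 4.06 on the other 4. Replicate 1 of both compared groups was thus the higher one on this measure; its part in the results was not tested beyond the model with this level as a covariate.

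Few genes passed the test, and the strongest were an acute-phase protein and receptors. Of 14511 genes, 5 (0.0345%) had an adjusted p under 0.05 in limma with Benjamini-Hochberg adjustment. A2m, Gucy2c and Tnfrsf21 rose (3 genes, 0.0207%), and Arhgef19 and Cryl1 fell (2 genes, 0.0138%). The count depended on the setting: it was 11 with 75th percentile scaling and 50 with the receptor level as a covariate, all 5 genes among them in both cases, and with each array centred on its median the calls were A2m and Tnfrsf21, both higher. At an unadjusted p under 0.05 there were 872 genes (6.01%), where 725.6 would be expected with no difference anywhere. Leaving out 1 array at a time gave 2 calls without replicate 1 and 1 call without replicate 2 of the hepatectomy group, and 11 and 8 calls without replicates 1 and 2 of the 12-week group.

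A2m encodes alpha-2-macroglobulin, a secreted protease inhibitor and the classical acute-phase protein of the rat. It read 12.57 and 12.99 after hepatectomy and 6.53 and 6.70 at 12 weeks. The difference of 6.17 ± 0.31 (moderated SE, n = 2 against 2, adjusted p = 4.2e-04) was the largest of all genes, a 71.8-fold change, and A2m passed the test in each of the 15 alternatives run. The younger unoperated livers were also high, at 10.67 and 10.30 at 4 weeks and 12.81 and 12.02 at 2 weeks. The hepatectomy level differed from the 2-week level by 0.36 ± 0.31 (adjusted p = 0.777). It was above the 4-week level by 2.30 ± 0.31 (adjusted p = 0.0327), a call that was lost without any 1 of those 4 arrays.

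Tnfrsf21, known as death receptor 6, is a member of the tumour necrosis factor receptor family. It read 9.03 and 8.99 after hepatectomy, 6.43 and 6.44 at 12 weeks, 7.16 and 7.05 at 4 weeks and 7.11 and 6.91 at 2 weeks. Both operated livers lay above all 6 unoperated ones. The difference from 12 weeks was 2.58 ± 0.21 (adjusted p = 0.00828); the call was kept in 12 of 15 alternatives and lost without either hepatectomy array (adjusted p = 0.144 and 0.191, in a range of 0.00555 to 0.191 over the alternatives). Gucy2c is the membrane guanylate cyclase that binds guanylin and uroguanylin, best known from the intestine. Its signal was 7.71 and 8.73 after hepatectomy against 5.39 and 4.93 at 12 weeks, 5.57 and 5.42 at 4 weeks and 6.62 and 6.55 at 2 weeks. Again the operated livers were above all others, although they differed from each other by a full unit. The rise of 3.06 ± 0.34 had an adjusted p of 0.0464, and without hepatectomy replicate 2, 12-week replicate 1 or 12-week replicate 2 it was 0.235, 0.0530 and 0.0798, in a range of 0.0144 to 0.354 over the alternatives.

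The genes that fell were nearer to background in the operated livers. Arhgef19, a guanine nucleotide exchange factor, read 5.21 and 5.16 after hepatectomy and 7.44 and 7.84 at 12 weeks, a fall of -2.46 ± 0.25 (adjusted p = 0.0393). At 2 weeks it was also low, at 5.50 and 5.21. Cryl1, lambda-crystallin, an enzyme that oxidises L-gulonate, read 6.92 and 6.94 against 8.88 and 9.16, a fall of -2.09 ± 0.23 (adjusted p = 0.0464). Its 2-week arrays stood at 6.57 and 6.72, below the operated livers. Arhgef19 lost its call without either hepatectomy array or without 12-week replicate 2, and Cryl1 without any 1 of the 4 arrays (adjusted p from 0.0505 to 0.377, and from 0.0115 over all alternatives).

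A further 9 genes had an adjusted p under 0.10 without passing the test. In 8 of them both operated livers lay outside all 6 unoperated ones, against 5.18% of all genes above and 5.15% below. The 9 were picked by their distance from 12 weeks, which favours this position, so the count of 8 is description only. Lcn2, lipocalin 2, an iron-carrier-binding acute-phase protein, differed from 12 weeks by 4.79 ± 0.62 (adjusted p = 0.0544), with 11.47 and 11.45 against 6.72 and 6.62. It is the exception among the 9, since the 4-week arrays read 10.05 and 11.85. Socs3, the feedback inhibitor of gp130 and JAK signalling, read 8.95 and 8.38 against 6.39 and 6.33 (2.31 ± 0.28, adjusted p = 0.0536). Junb, an AP-1 subunit, read 8.94 and 8.86 against 6.95 and 7.02 (1.91 ± 0.24, adjusted p = 0.0536). Runx1, a runt-domain transcription factor, stood at 8.66 and 8.74 against 7.17 and 6.80 (1.71 ± 0.23, adjusted p = 0.0693). The other members with higher signal were Scube1, a secreted and membrane-bound EGF-domain protein (9.0 and 8.58 against 6.54 and 5.65), Asns, asparagine synthetase (8.58 and 8.46 against 6.63 and 6.63), and Cdr2 (7.72 and 7.85 against 6.05 and 6.18). On the low side stood Coq8a, a kinase-like protein of coenzyme Q synthesis, at 8.66 and 8.53 against 11.46 and 10.88, and Notum, the secreted enzyme that inactivates Wnt ligands, at 6.44 and 6.11 against 8.27 and 8.47.

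**Figure D1:**
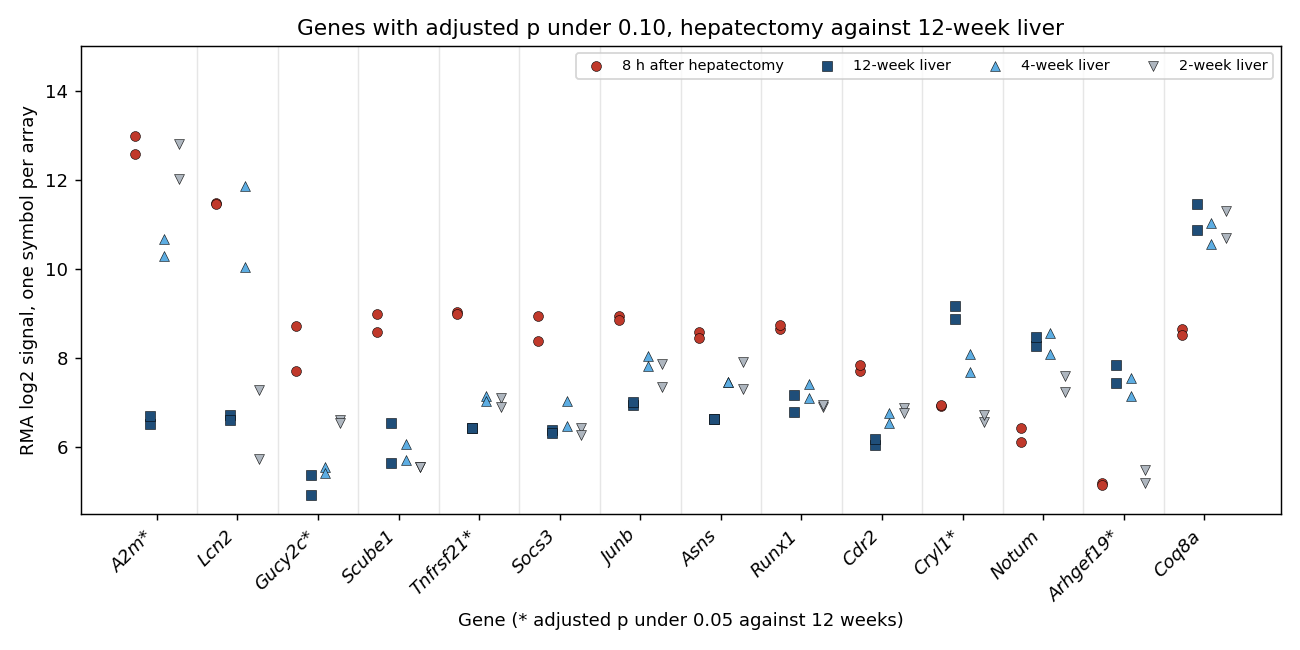
RMA log2 signal (vertical axis) of the 14 genes with an adjusted p under 0.10, one symbol per array and one colour and shape per group; an asterisk marks the 5 genes under 0.05. For A2m and Lcn2 the 4-week arrays are also high, while for Tnfrsf21, Socs3, Scube1, Runx1 and Coq8a the 2 hepatectomy arrays stand apart from all 6 unoperated livers.

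Because the 12-week arrays were the furthest apart, some of the same genes were also set against the younger livers, which share the hepatectomy arrays with it. Over all genes, 0.117% rose and 0.193% fell against 4 weeks, and 0.793% rose and 1.36% fell against 2 weeks. Socs3 was above 4 weeks by 1.89 ± 0.28 (adjusted p = 0.0441) and above 2 weeks by 2.30 ± 0.28 (adjusted p = 0.00655). Coq8a was lower than at 4 weeks by -2.20 ± 0.31 (adjusted p = 0.0347) and than at 2 weeks by -2.39 ± 0.31 (adjusted p = 0.00788). Scube1 was higher by 2.89 ± 0.32 and 3.23 ± 0.32 (adjusted p = 0.0174 and 0.00292). Tnfrsf21 was higher by 1.90 ± 0.21 and 2.00 ± 0.21 (adjusted p = 0.0168 and 0.00309). All 4 genes passed the test against both younger ages. They are a choice from the 14 genes under 0.10 and do not stand for the rest. A2m, for 1, did not pass against 2 weeks in limma (adjusted p = 0.777). The calls against 4 weeks for these 4 genes were each lost when any 1 array was left out, whereas against 2 weeks Tnfrsf21 and Scube1 passed without each array in turn.

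Promoter sequence was looked at for the genes with the largest differences, since several of their known regulators recognise short motifs. Of the 30 genes with the largest differences in either direction and no overlap of arrays, 22 had an entry in the RefSeq promoter table (GRCr8; 250 bases before to 50 bases after the start site). Of a gene with several start sites in the table, the first listed was searched. The motifs searched on both strands were TTCNNNGAA (STAT), TTGCNNAA (C/EBP), CACGTG (E-box), TTATGTAA (D-box), TGANTCA (AP-1), TGACGTCA (CRE) and TGATGNAAT (amino acid response). They were present in 1, 4, 4, 0, 3, 0 and 0 of these 22 promoters, and in 8.68%, 10.5%, 6.65%, 0.881%, 7.33%, 1.91% and 1.05% of all 27457 promoters. Of the 22 genes 1, Nr1d1, had a further start site, and that window held a STAT and an E-box match; with every listed start site searched, STAT was found for 2 and the E-box for 5 of the 22 genes, against 9.39% and 7.08% of all genes. The shown windows, 260 bases each from 250 before the start site, belong to an acute-phase gene, 2 cytokine receptors and a clock output gene, with the matched motif in capitals.
Lcn2: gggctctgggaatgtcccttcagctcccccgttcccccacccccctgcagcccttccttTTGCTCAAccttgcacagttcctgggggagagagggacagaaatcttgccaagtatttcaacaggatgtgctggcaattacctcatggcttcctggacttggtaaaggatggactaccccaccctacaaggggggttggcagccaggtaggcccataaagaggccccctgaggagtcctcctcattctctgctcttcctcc
Osmr: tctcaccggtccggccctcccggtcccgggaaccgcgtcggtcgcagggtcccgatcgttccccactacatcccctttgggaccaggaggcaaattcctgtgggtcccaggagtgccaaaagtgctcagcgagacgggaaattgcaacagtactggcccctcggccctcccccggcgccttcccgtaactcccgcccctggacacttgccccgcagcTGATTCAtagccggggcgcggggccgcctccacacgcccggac
Tnfrsf21: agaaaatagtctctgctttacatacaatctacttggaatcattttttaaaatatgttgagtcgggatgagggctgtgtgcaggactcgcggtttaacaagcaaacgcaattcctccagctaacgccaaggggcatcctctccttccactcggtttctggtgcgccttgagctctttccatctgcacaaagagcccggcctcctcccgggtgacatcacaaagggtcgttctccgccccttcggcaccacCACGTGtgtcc
Dbp: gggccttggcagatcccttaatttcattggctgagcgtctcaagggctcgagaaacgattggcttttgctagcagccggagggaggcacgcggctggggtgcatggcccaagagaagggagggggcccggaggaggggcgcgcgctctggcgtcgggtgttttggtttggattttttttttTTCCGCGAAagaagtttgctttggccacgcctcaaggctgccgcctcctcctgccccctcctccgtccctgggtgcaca
The Lcn2 window (chr3:36081771-36082030, minus strand) holds a C/EBP match that begins 191 bases before the start site. In the Osmr window (chr2:57688552-57688811, minus strand) an AP-1 match begins at 33 bases, in the Tnfrsf21 window (chr9:25451314-25451573, minus strand) an E-box at 1 base, and in the Dbp window (chr1:105312006-105312265, plus strand) a STAT match at 69 bases before it. A match describes these letters only.

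Among all genes, both hepatectomy arrays lay above both 12-week arrays for 1991 genes (13.7%) and below them for 2210 (15.2%), and 179 genes (1.23%) were higher and 198 (1.36%) lower by at least 2-fold. The largest differences among genes without overlap, besides those named, were in Cxcl1, a neutrophil-attracting chemokine (9.76 and 9.74 against 7.61 and 6.79), Rdh16, a retinol dehydrogenase (8.59 and 9.64 against 6.78 and 6.50), and Mt2A, a metallothionein (12.85 and 13.80 against 10.79 and 11.05). None of these 3 genes passed the test (adjusted p = 0.429, 0.311 and 0.211), and their 4-week arrays reached 10.34, 8.30 and 13.44. Cdh17, an intestinal and liver cadherin, read 6.44 and 7.49 against 4.84 and 4.75, and Wdr72 6.97 and 7.48 against 5.51 and 4.87, each above all 6 unoperated livers. Nceh1, a cholesterol ester hydrolase, read 9.82 and 10.44 against 6.69 and 8.91.

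On the low side the 12-week arrays often disagreed. Ugt2b, a glucuronosyltransferase, read 3.87 and 3.87 after hepatectomy and 4.00 and 11.65 at 12 weeks, so that the mean difference of -3.96 ± 1.89 became -0.13 without 12-week replicate 2 and -7.78 without replicate 1. Akr1c12, an aldo-keto reductase, behaved alike, with 4.95 and 4.36 against 4.98 and 8.56. Ces2e, a carboxylesterase, read 6.49 and 6.93 against 8.28 and 11.71. These 3 belong to families of similar genes, whose probe sets may share signal. Car3, the muscle and liver carbonic anhydrase, differed by -3.11 and -3.78 without 12-week replicate 1 and 2, with 8.23 and 8.54 against 12.16 and 11.49 (-3.44 ± 0.58, adjusted p = 0.150). Enzymes of amino acid breakdown stood beside it: Cth, cystathionine gamma-lyase, at 10.48 and 10.32 against 13.41 and 12.29, Prodh, proline dehydrogenase, at 9.51 and 8.72 against 11.58 and 11.29, and Dao, D-amino acid oxidase, at 6.03 and 5.70 against 7.70 and 8.66. Ppp1r3b, which brings a phosphatase to glycogen, read 8.87 and 7.84 against 9.82 and 11.65. Tsku, a secreted leucine-rich protein, read 9.46 and 7.57 against 10.79 and 11.60, and Akap5, an anchor of protein kinase A, 5.45 and 5.04 against 8.33 and 7.08.

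**Figure D2:**
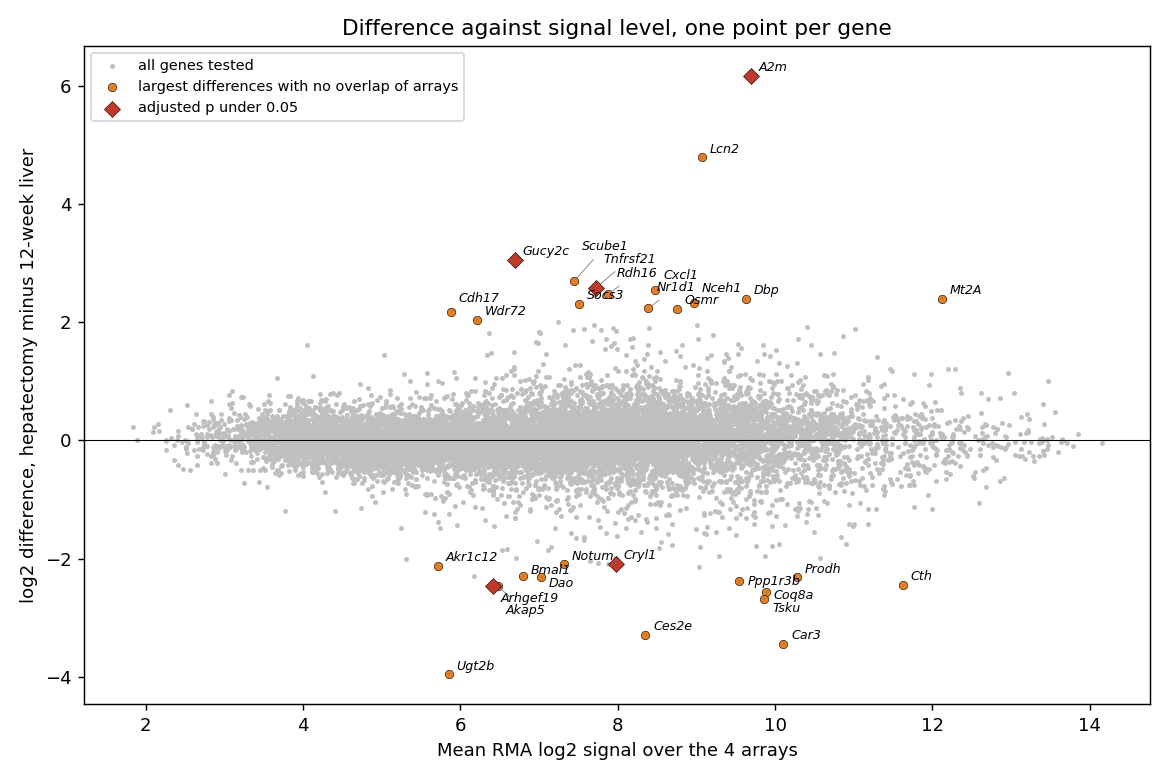
Difference between hepatectomy and 12-week liver (log2, vertical axis) against the mean signal of the 4 arrays (log2, horizontal axis), 1 point per gene for 14511 genes; diamonds are the 5 genes with adjusted p under 0.05 and circles the other largest differences without overlap. Most genes lie within 1 unit of 0, and A2m at 6.17 and Lcn2 at 4.79 lie furthest above.

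**Figure D3:**
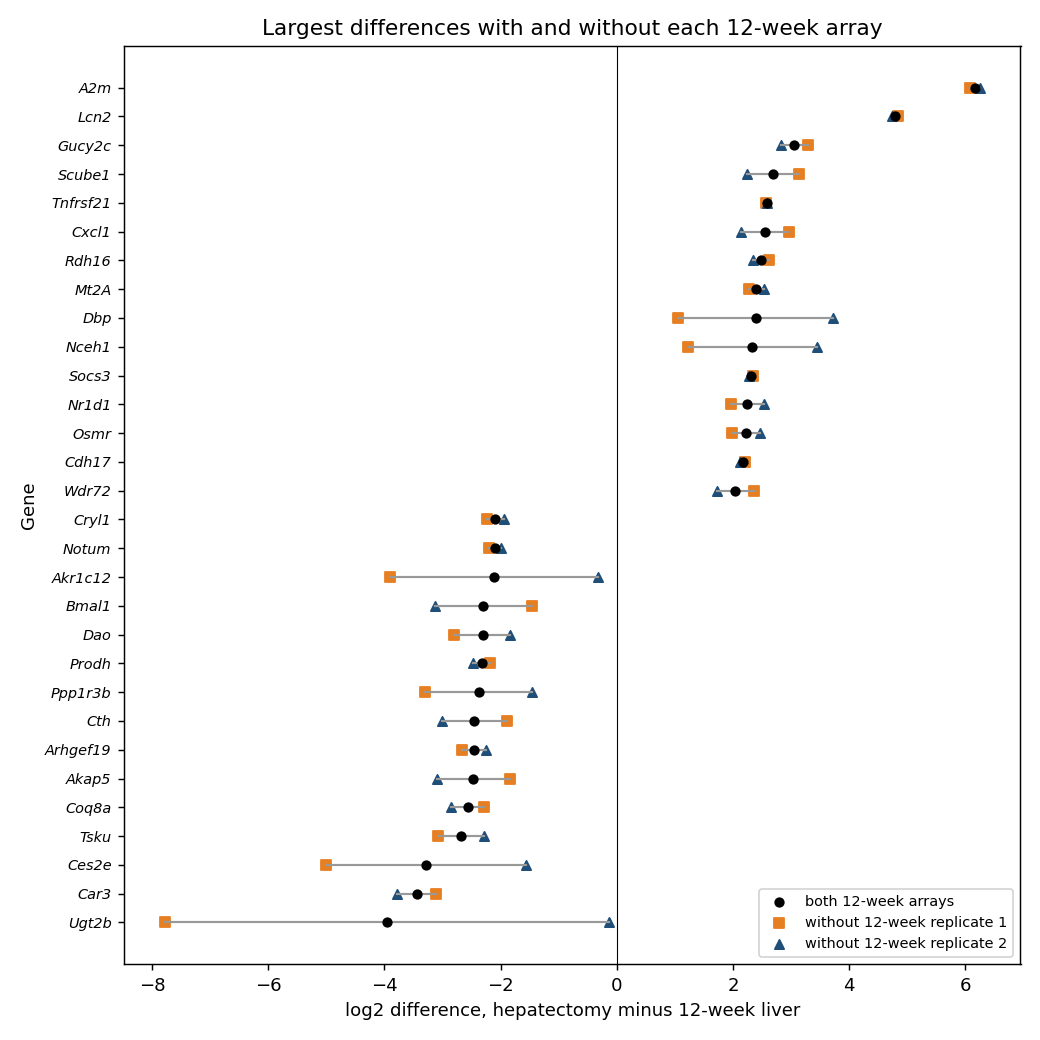
Difference between hepatectomy and 12-week liver (log2, horizontal axis) for the 15 highest and 15 lowest genes without overlap, with both 12-week arrays (circle) and without each of them (square, triangle). A2m, Lcn2, Socs3 and Tnfrsf21 hardly move, whereas Ugt2b runs from -7.78 to -0.13 and Dbp from 1.05 to 3.73.

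Among cytokine ligands and receptors the largest differences were in receptors. Of 21 genes, both operated livers were above both 12-week livers in 9 (42.9%, against 13.7% of all genes) and above all 6 unoperated livers in 7 (33.3%, against 5.18% of all genes). The median difference was 0.08, against 0.00 over all genes, and Tnfrsf21 was the member that passed the test. Osmr, the oncostatin M receptor chain that pairs with gp130, read 10.07 and 9.65 against 7.40 and 7.87 (2.22 ± 0.36, adjusted p = 0.124). It was 7.17 and 7.42 at 4 weeks and 5.91 and 6.94 at 2 weeks, and passed the test against both ages (adjusted p = 0.0347 and 0.00320), the former not without any 1 array. Il1r1, the signalling interleukin 1 receptor, read 11.68 and 11.06 against 9.70 and 9.21 (1.92 ± 0.34, adjusted p = 0.165). Tnfrsf1a, the main tumour necrosis factor receptor, read 10.78 and 10.03 against 9.47 and 9.11 (1.11 ± 0.31, adjusted p = 0.454). The ligand genes were at low signal: Il6 at 4.32 and 3.99 against 3.85 and 3.48, and Tnf at 6.19 and 6.07 against 6.11 and 6.25. Il6st, the shared chain, was high in all arrays, at 11.88 and 11.71 against 11.61 and 11.22.

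Downstream of these receptors, 9 of 21 transducers and feedback genes (42.9%, against 13.7% of all genes) had both operated livers higher. In 3 (14.3%, against 15.2%) both were lower. The median over the 21 genes was 0.07. In limma 0 of them passed the test, and 6 had an unadjusted p under 0.05, against 6.01% of all genes. Stat3 itself read 11.38 and 11.22 against 9.98 and 9.68 (1.47 ± 0.23, adjusted p = 0.117), above all 6 unoperated livers. Cish, a feedback inhibitor of cytokine and growth hormone signalling, read 9.58 and 8.97 against 8.00 and 7.84 (1.35 ± 0.38, adjusted p = 0.456). Pim1, a kinase induced by STAT factors, read 8.90 and 8.13 against 8.00 and 7.24. Cebpb, which carries acute-phase transcription, differed little, at 7.74 and 8.09 against 7.88 and 7.93.

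Positive acute-phase proteins lay mostly above 12 weeks. Of 28 genes, 24 had a difference above 0, and the median was 0.27. Both operated livers were higher in 20 (71.4%, against 13.7% of all genes) and lower in 2 (7.14%, against 15.2%). They were above all 6 unoperated livers in only 8 (28.6%, against 5.18%). A2m was the member that passed the test. Most differences were small beside A2m and Lcn2. Serpina3n, an abundant protease inhibitor, read 13.98 and 13.96 against 13.02 and 12.90 (1.01 ± 0.22, adjusted p = 0.276), and Steap4, a metalloreductase, 10.26 and 10.45 against 8.75 and 8.83 (1.56 ± 0.36, adjusted p = 0.311). The fibrinogen chains were near the top of the scale, with Fga at 13.53 and 13.35 against 12.69 and 12.57, Fgg at 13.73 and 13.70 against 13.08 and 13.14, and Fgb at 13.48 and 13.37 against 12.91 and 13.04. All 3 chains lay above every unoperated liver. Orm1, the alpha-1-acid glycoprotein, read 12.92 and 12.70 against 12.37 and 10.82. Against the direction of the list, Cd14, the lipopolysaccharide co-receptor, read 11.17 and 11.12 against 11.91 and 11.66. The 14 negative acute-phase genes had a median of -0.17, with 12 below 0 and 4 (28.6%, against 15.2% of all genes) with both operated livers lower.

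Among immediate-early genes Junb had the largest difference, and in 23 of 32 genes the arrays of the groups overlapped. Both operated livers were higher in 7 (21.9%, against 13.7% of all genes) and lower in 2 (6.25%, against 15.2%), and above all 6 unoperated livers in 2 (6.25%, against 5.18%), with a median of 0.14. In limma 0 passed the test, and 3 had an unadjusted p under 0.05, against 6.01% of all genes. Gadd45g, a growth arrest and stress gene, read 7.28 and 7.56 against 6.44 and 6.43 (0.99 ± 0.25, adjusted p = 0.404). Fos was 5.84 and 6.14 against 6.11 and 5.86, and Myc 6.92 and 6.94 against 6.85 and 7.16. For both genes the arrays of the groups overlapped, and Myc was 7.82 and 7.98 at 4 weeks.

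Growth factors and their receptors lay near the shares of all genes, with 5 of 30 (16.7%, against 13.7%) higher and 7 (23.3%, against 15.2%) lower in both operated livers and a median of -0.01. Hgf, hepatocyte growth factor, read 8.65 and 8.81 against 7.70 and 7.55 (1.11 ± 0.21, adjusted p = 0.183); the younger livers were as high, at 8.48 and 8.62 and at 8.93 and 8.92. Its receptor Met was 10.09 and 9.92 against 10.37 and 10.08. Egf read 6.43 and 6.42 against 7.10 and 7.72 (-0.99 ± 0.31, adjusted p = 0.550), and Gdf15, a stress-induced member of the TGF-beta family, 5.91 and 6.02 against 6.60 and 7.10. Inhbc, a liver activin subunit, read 10.62 and 10.78 against 9.72 and 10.16. In the growth hormone and IGF axis 7 of 17 genes (41.2%, against 13.7% of all genes) were higher and 2 (11.8%, against 15.2%) lower in both operated livers, with a median of 0.17. Igfbp4, which binds IGF, read 12.18 and 11.77 against 11.42 and 11.12, while Igfbp1, a hepatic binding protein that responds to fasting and insulin, read 9.93 and 11.25 against 11.47 and 7.95. The 12-week arrays for Igfbp1 were thus further apart than the groups (replicate 2 minus replicate 1 was -3.52).

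Nucleolar genes lay above the 12-week level on average. Of 33 ribosome biogenesis genes 31 had a difference above 0, both operated livers were higher in 15 (45.5%, against 13.7% of all genes) and lower in 0, and both were above all 6 unoperated livers in 9 (27.3%, against 5.18%). The median was 0.62 with both 12-week arrays, but 0.11 without replicate 1 and 0.91 without replicate 2, so its size rested on the choice of array. In limma 0 genes passed the test, and 10 had an unadjusted p under 0.05, against 6.01% of all genes. Ncl, nucleolin, read 11.91 and 11.69 against 11.01 and 10.75 (0.92 ± 0.22, adjusted p = 0.334). Bop1, a factor of large-subunit assembly, read 8.34 and 8.83 against 6.99 and 7.82, and Mybbp1a 10.35 and 10.51 against 9.12 and 9.72. Each of these 3 was above every unoperated liver.

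Chaperones of the endoplasmic reticulum shared a sign. All 18 measured genes had a difference above 0, both operated livers were higher in 12 (66.7%, against 13.7% of all genes) and lower in 0, and in 10 (55.6%, against 5.18%) they were above all 6 unoperated livers. The median was 0.48, or 0.31 and 0.78 without 12-week replicate 1 and 2. In limma 0 genes passed the test, and 7 had an unadjusted p under 0.05, against 6.01% of all genes. Creld2, a secretory-pathway stress gene, read 10.32 and 10.36 against 8.13 and 9.29 (1.63 ± 0.39, adjusted p = 0.338). Hspa5, the main luminal chaperone BiP, read 13.02 and 13.10 against 11.83 and 12.90 (0.70 ± 0.35, adjusted p = 0.927). Hyou1 read 11.56 and 11.03 against 9.66 and 10.67, Herpud1, a degradation factor, 11.29 and 11.09 against 9.94 and 10.59, and the stress sensor Atf6 10.12 and 9.92 against 9.08 and 9.39. For the list of heat shock proteins the median of 0.26 over 18 genes turned to -0.28 without 12-week replicate 1 and was 0.73 without replicate 2. Hspa4l, an HSP110 relative, read 5.93 and 6.16 against 6.25 and 7.70, and Hsp90aa1 12.09 and 12.04 against 10.83 and 12.00.

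Genes of amino acid stress did not share a direction, with 5 of 22 (22.7%, against 13.7% of all genes) higher and 5 (22.7%, against 15.2%) lower. Both operated livers were above all 6 unoperated ones in 4 (18.2%, against 5.18%) and below them in 2 (9.09%, against 5.15%). Asns and the amino acid transporter Slc38a2 (11.41 and 11.39 against 10.57 and 10.68) were high, and Cth was low. Among 24 genes of oxidant, heme and metal stress 4 (16.7%, against 13.7% of all genes) were higher and 10 (41.7%, against 15.2%) lower, with a median of -0.08. In limma 0 of the 24 passed the test, and 12 had an unadjusted p under 0.05, against 6.01% of all genes. The 4 higher ones included Mt2A. Hmox1, heme oxygenase, read 9.97 and 9.98 against 7.94 and 8.12 (1.95 ± 0.31, adjusted p = 0.117), Mt1 13.14 and 13.91 against 12.50 and 12.28, and the zinc and iron importer Slc39a14 11.95 and 11.78 against 10.89 and 10.90. Hmox1 stood at 8.75 and 9.71 at 4 weeks and 9.61 and 9.50 at 2 weeks, between the hepatectomy and 12-week levels. The lower ones had different roles. Gclm and Gclc, the subunits of the enzyme that starts glutathione synthesis, read 8.88 and 8.24 against 9.73 and 9.85, and 10.70 and 10.71 against 11.25 and 11.66, and Gsr, glutathione reductase, 8.95 and 8.97 against 9.83 and 9.81. Cat, catalase, read 12.60 and 11.98 against 13.26 and 12.90, Blvrb, a biliverdin reductase, 6.84 and 7.69 against 7.80 and 8.66, and Nfe2l2, the oxidant-response factor NRF2, 9.82 and 9.51 against 10.16 and 10.38.

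Lipid synthesis genes lay below 12 weeks. Of 22 lipogenesis genes 20 had a difference below 0, and the median was -0.66. Both operated livers were lower in 10 (45.5%, against 15.2% of all genes) and higher in 0. They were below all 6 unoperated livers in 2 (9.09%, against 5.15% of all genes). By limma 0 passed the test, and 7 had an unadjusted p under 0.05, against 6.01% of all genes. The median was -0.61 and -0.72 without either 12-week array, and -0.90 and -0.38 without hepatectomy replicate 1 and 2. Gpam, which starts glycerolipid synthesis, read 9.79 and 10.26 against 11.69 and 11.86 (-1.75 ± 0.27, adjusted p = 0.117). Acacb, the mitochondrial acetyl-CoA carboxylase, read 6.94 and 6.72 against 9.25 and 8.59, Pnpla3, a lipid-droplet enzyme, 5.62 and 5.73 against 6.88 and 8.14, and Mlxipl, the carbohydrate-sensing factor ChREBP, 8.82 and 8.11 against 10.62 and 9.42. At 2 weeks Acacb was lower still, at 5.99 and 5.59. The mean level of the 22 genes was also lower at 2 weeks, at 9.30 and 8.71 against 9.85 and 9.54 after hepatectomy. Cholesterol synthesis had 7 of 15 genes (46.7%, against 15.2% of all genes) lower in both operated livers than in both 12-week livers. It had 0 below all 6 unoperated livers (against 5.15% of all genes). The median was -0.46, or -0.77 without 12-week replicate 1 and -0.07 without replicate 2. Pmvk, a mevalonate pathway kinase, read 7.36 and 7.17 against 8.12 and 9.21.

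Fatty acid oxidation genes lay on both sides. Of 19 genes 7 (36.8%, against 13.7% of all genes) were higher and 3 (15.8%, against 15.2%) lower in both operated livers, with a median of 0.27, or 0.10 without 12-week replicate 1. Cpt1a, the gate of fatty acids into mitochondria, read 12.21 and 11.70 against 10.19 and 9.96 (1.88 ± 0.41, adjusted p = 0.278), and Pdk4, which holds back pyruvate oxidation, 11.49 and 11.91 against 11.38 and 9.94. The peroxisomal enzyme Ehhadh read 10.35 and 10.60 against 11.80 and 11.99 (-1.42 ± 0.24, adjusted p = 0.150), and Bdh1, a ketone body enzyme, 8.85 and 9.39 against 9.91 and 10.77. Both were below all 6 unoperated livers. Of 21 lipid uptake and droplet genes 3 (14.3%, against 13.7% of all genes) were higher and 2 (9.52%, against 15.2%) lower. Cidec, a droplet protein, read 10.31 and 10.13 against 8.79 and 9.62. Glucose genes were close to the shares of all genes, with 3 of 22 (13.6%, against 13.7%) higher and 4 (18.2%, against 15.2%) lower. Gys2, liver glycogen synthase, read 11.43 and 11.54 against 9.14 and 10.87, and Pygl, liver glycogen phosphorylase, 10.28 and 9.94 against 11.21 and 11.06.

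Lists of hepatocyte function differed among themselves. Bile acid, P450, urea cycle and transcription factor genes had medians below 0, whereas the 11 hepatocyte markers had a median of -0.11 with 9 overlapping, and 27 complement and coagulation genes one of -0.05. In bile acid synthesis and transport 18 of 22 genes had a difference below 0, both operated livers were lower in 10 (45.5%, against 15.2% of all genes) and below all 6 unoperated livers in 7 (31.8%, against 5.15% of all genes), and the median was -0.45, or -0.24 without 12-week replicate 2. Nr0b2, the nuclear receptor SHP that represses bile acid synthesis, read 6.72 and 6.73 against 8.12 and 8.70 (-1.68 ± 0.33, adjusted p = 0.209), Abcc3, a basolateral exporter, 7.47 and 7.57 against 8.83 and 8.81 (-1.30 ± 0.24, adjusted p = 0.167), and Akr1d1, a reductase of the pathway, 11.22 and 11.19 against 12.12 and 12.52. Cyp7a1, the rate-limiting enzyme, overlapped, at 12.19 and 11.56 against 11.21 and 12.20. In the P450 and conjugation list 13 of 28 genes (46.4%, against 15.2% of all genes) were lower and 3 (10.7%, against 13.7%) higher, with a median of -0.38. Aldh1a1, retinal dehydrogenase, read 9.37 and 10.08 against 10.77 and 11.78, and Fmo1, a flavin monooxygenase, 9.84 and 9.71 against 10.71 and 10.94. Por, the reductase that feeds all microsomal P450 enzymes, was an exception, at 11.21 and 11.15 against 9.28 and 10.84.

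Urea cycle and amino acid breakdown had 16 of 33 genes (48.5%, against 15.2% of all genes) lower, 2 (6.06%, against 13.7%) higher and a median of -0.35. Kmo, kynurenine monooxygenase, read 9.20 and 9.96 against 11.18 and 11.96 (-1.99 ± 0.33, adjusted p = 0.150), and Otc, ornithine transcarbamylase, 9.66 and 9.36 against 10.57 and 10.47. Agxt, which detoxifies glyoxylate, went against the list, at 10.68 and 10.88 against 9.82 and 9.21 (1.26 ± 0.28, adjusted p = 0.276). Liver transcription factors and nuclear receptors had 6 of 24 (25.0%, against 15.2%) lower and 1 (4.17%, against 13.7%) higher. Their median was -0.18, and the leading gene was again Nr0b2. In these 4 lists limma called 0 genes. An unadjusted p under 0.05 was found for 4 of 22, 8 of 28, 12 of 33 and 5 of 24, against 6.01% of all genes.

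**Figure D4:**
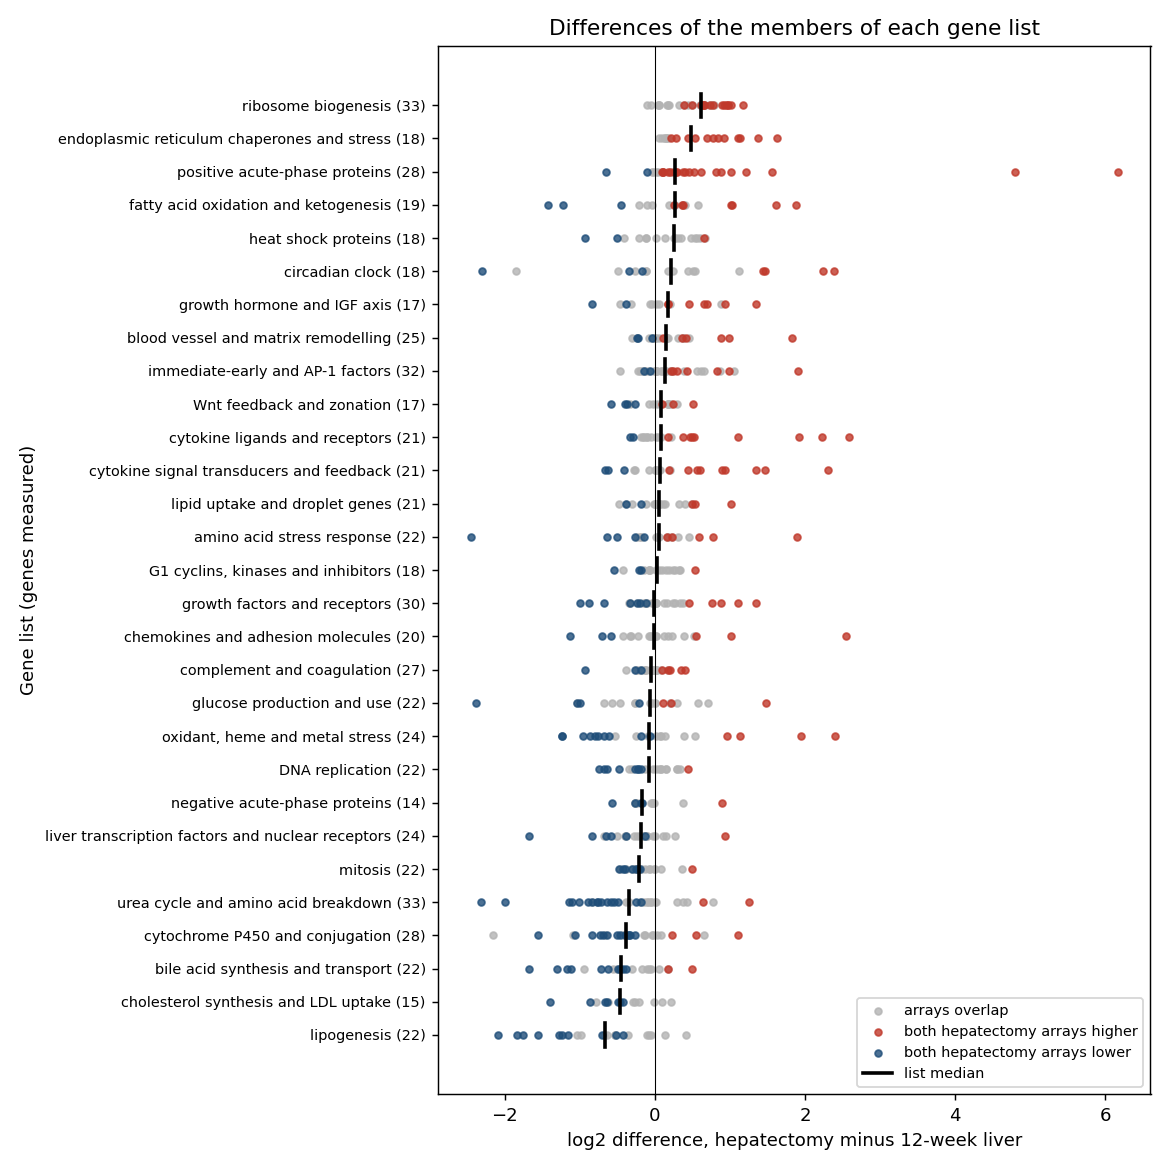
Difference between hepatectomy and 12-week liver (log2, horizontal axis) for each measured gene of the 29 pathway lists (vertical axis, number of genes in brackets); colour shows whether both hepatectomy arrays were above or below both 12-week arrays, and the bar is the list median. Medians run from -0.66 for lipogenesis to 0.62 for ribosome biogenesis, and A2m and Lcn2 stand alone on the right.

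Clock genes differed by large amounts but so did the 12-week arrays from each other. Dbp, a clock output factor, read 11.17 and 10.46 against 7.09 and 9.77, and Bmal1, the core activator, 5.40 and 5.89 against 8.78 and 7.10. Nr1d1, the repressor REV-ERB alpha, read 9.98 and 9.04 against 6.99 and 7.56 (2.24 ± 0.35, adjusted p = 0.117); 4-week livers were at 10.33 and 10.09 and 2-week livers at 7.26 and 6.92. Npas2, a partner of Bmal1, was 5.67 and 5.56 against 9.30 and 5.62. The list median of 0.21 over 18 genes became -0.14 without 12-week replicate 1 and 0.41 without replicate 2.

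Cell cycle genes seldom had both operated livers above both 12-week livers. Ccnd1, cyclin D1, read 7.35 and 7.54 against 7.12 and 7.92. Of 18 G1 genes 10 had a difference above 0 and 14 overlapped; the 1 (5.56%, against 13.7% of all genes) higher in both operated livers was Ccne1, cyclin E1, at 6.23 and 5.75 against 5.33 and 5.58, and 7.59 and 7.16 at 2 weeks. In DNA replication 8 of 22 genes (36.4%, against 15.2% of all genes) were lower, 1 (4.55%, against 13.7%) was higher and 10 had a difference above 0. Both operated livers were below all 6 unoperated ones in 6 (27.3%, against 5.15%). The median was -0.08, or -0.26 and 0.06 without 12-week replicate 1 and 2, so its sign rested on the array. Pole, a replicative polymerase, read 5.73 and 5.96 against 6.38 and 6.66. Among mitosis genes 19 of 22 had a difference below 0, and 7 (31.8%, against 15.2% of all genes) were lower in both operated livers. In 6 (27.3%, against 5.15%) both lay below all 6 unoperated ones. The median was -0.21, or -0.43 and -0.06 without 12-week replicate 1 and 2. The 1 that was higher was Aurka, Aurora kinase A, at 6.13 and 5.89 against 5.20 and 5.84. Ccnb1, cyclin B1, read 4.92 and 5.10 against 5.21 and 5.22, whereas the growing livers were at 6.54 and 7.32 at 4 weeks and 8.19 and 8.01 at 2 weeks. Against those ages it was lower by -1.92 ± 0.28 (adjusted p = 0.0433, lost without any 1 array) and -3.09 ± 0.28 (adjusted p = 0.00202).

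Among the remaining lists, counts stayed closer to the shares of all genes, 13.7% higher and 15.2% lower. Chemokines and adhesion molecules had 3 of 20 (15%) higher and 3 (15%) lower, complement and coagulation 5 of 27 (18.5%) and 3 (11.1%), Wnt feedback and zonation 3 of 17 (17.6%) and 4 (23.5%), and vessel and matrix genes 6 of 25 (24%) and 3 (12.0%). Timp1, an inhibitor of matrix proteases, read 7.36 and 8.47 against 5.39 and 6.77 (1.83 ± 0.50, adjusted p = 0.429). The interferon-induced chemokine Cxcl9 read 6.52 and 6.51 against 6.77 and 8.53.

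Markers of other cell types were read beside these results. All 14 lymphocyte markers had a difference below 0, with 6 (42.9%, against 15.2% of all genes) lower in both operated livers. In limma 3 had an unadjusted p under 0.05, against 6.01% of all genes, and 0 of the 14 were called. Their mean level was 5.80 and 5.83 against 6.10 and 6.69, and the median difference of -0.60 was -0.89 without 12-week replicate 1 and -0.15 without replicate 2. Cd3d, a T cell receptor chain, read 4.18 and 4.15 against 5.35 and 5.29. Of 13 neutrophil markers 11 had a difference above 0, and 4 were higher by at least 2-fold. Both operated livers were higher in 6 (46.2%, against 13.7% of all genes) and lower in 1 (7.69%, against 15.2%). The median difference was 0.20, in a range of -0.36 to 4.79. Mean levels were 6.08 and 6.19 against 5.56 and 5.37. Lcn2, also in the acute-phase list, had the 4.79 and is part of these means and of the 4. Besides Lcn2, S100a9 read 5.83 and 6.46 against 5.32 and 4.69, Mmp8 6.26 and 6.66 against 5.60 and 5.23, and Cxcr2 5.71 and 6.02 against 4.57 and 5.13. Csf3r read 6.55 and 6.46 against 5.98 and 5.90. In 0 of the 13 were both operated livers above all 6 unoperated ones. The granule genes Mpo, Elane, Camp and Ltf differed by -0.17, 0.02, 0.03 and 0.01. Kupffer cell markers averaged 8.92 and 9.17 against 8.95 and 8.57, with Vsig4 and Marco low on 12-week replicate 2 alone (5.98 and 5.81, against 8.90 and 7.94 on replicate 1). Erythroid markers averaged 6.10 and 6.15 against 6.48 and 6.67, and Tfrc, the transferrin receptor, read 8.73 and 9.45 against 9.98 and 10.82. Stellate cell, endothelial, cholangiocyte, adipocyte, mesothelial and pancreas markers had medians between -0.02 and 0.07. Both operated livers were higher in 5 of 14 stellate cell markers (35.7%, against 13.7% of all genes) and lower in 1 (7.14%, against 15.2%). For 13 Kupffer cell markers these counts were 4 (30.8%) and 1 (7.69%). In 0 genes of either list were both above all 6 unoperated livers. The part of any of these shifts in the acute-phase, chemokine or other results was not tested.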

How the data were processed

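RNA levels of 8 rat livers, 2 per group, came from Affymetrix Rat Gene 1.0 ST arrays. The deposited series table holds log2 values made by the authors with RMA (Affymetrix Expression Console), as the submitters' processing notes say; for versions and filters the sources used here give nothing. RMA compresses differences near the bottom of the scale, and the number of arrays limits the precision. Of 29214 probe sets, 15633 had a gene in the platform annotation, 15316 of them 1 symbol and 317 several, and 13581 were unnamed here. For the 528 genes with several probe sets the one with the highest mean was kept, which left 14511 genes. Of the single-symbol probe sets, 15285 matched the GRCr8 gene table by identifier, used for names only. Values ran from 1.32 to 14.23.

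A model of the 4 groups was fitted to all 8 arrays in limma 3.58.1 (R 4.3.3), with 4 residual and 4.27 prior degrees of freedom. The difference between hepatectomy and 12 weeks was tested two-sided, with Benjamini-Hochberg adjustment over 14511 genes and a threshold of 0.05, and is given with its moderated SE. The model was run on simulated data with independent noise and 1 spread per gene shared by all groups. In the data the mean variance was 0.233 at 12 weeks and 0.0886 after hepatectomy. The simulation did not copy this, so it does not bear on the calls made here. Lists are described by counts and medians only.

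The genes and the 40 lists (769 of 862 entries measured) were chosen with earlier results of these data known. Named by rule were the called genes, the 15 largest differences in each direction without overlap, 4 genes per pathway list and 3 per marker list with the largest test statistic, and a short fixed set; other names were chosen after their values were seen. Replicate numbers are not known to pair animals and were not used in the model. Alternatives covered scaling, the arrays fitted, probe sets, filter, variance model, threshold, the replicate number and left-out arrays; leave-outs against 4 and 2 weeks were added after seeing the data.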

Additional observations from a re-analysis of the deposited data

How the results depend on the processing

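The count of 5 genes depended on the setting. It was 2 with only the 4 compared arrays, 2 with median centring, 3 over all probe sets, 2 at an adjusted p under 0.01, 11 with 75th percentile scaling and 50 with the median of the receptor genes as covariate. With the replicate block it was 41 and included all 5; the deviations of same-numbered hepatectomy and 12-week arrays correlated at 0.57, but with 2 pairs the numbers are not known to pair animals. Leaving out 1 array gave 1 to 11 calls. It stayed within 1.5 times with quantile normalization, a filter at the median level, trended variances and probe set means. A2m was called in all 15 alternatives, Tnfrsf21 in 12, Cryl1 in 6 of 15, and Gucy2c and Arhgef19 in 7 of 14. The cause was not tested.

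For the 123 genes named, 1704 of 1818 alternative values kept direction and side of the threshold, 26 lost and 62 gained a call, and 26, in 12 genes, changed sign. These lay near 0, apart from Igfbp1, which ran from -0.88 to 2.64 with 1 array left out. Over the left-out arrays the others ran from -0.12 to 0.17 (Camp), -0.48 to 0.32 (Ccnd1), -0.16 to 0.19 (Cebpb), -0.33 to 0.66 (Cyp7a1), -0.15 to 0.16 (Fos), -0.24 to 0.26 (Ltf), -0.34 to 0.01 (Mpo), -0.23 to 0.08 (Myc) and -0.12 to 0.02 (Tnf). Percentile scaling gave -0.01 for Cebpb, -0.02 for Fos and Ltf, and 0.00 for Elane and Camp. Quantile normalization gave -0.01 for Cebpb and 0.00 for Alb, and the receptor covariate -0.03 for Ltf. Against the younger livers, A2m ran from -0.03 to 0.76 (2 weeks) and Lcn2 from -0.39 to 1.41 (4 weeks). List medians moved by more than their spread between arrays in 38 of 359 alternatives, 14 of them without 12-week replicate 2 and 8 without replicate 1.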

Other observations

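Families looked at after the values were seen add to the lists. Aminoacyl-tRNA synthetases charge tRNAs with amino acids for protein synthesis. Of the 19 cytosolic synthetase genes measured, 18 had a difference from 12 weeks above 0. In 11 (57.9%, against 5.18% of all genes) both operated livers were above all 6 unoperated ones. By limma 0 of the 19 passed the test and 8 had an unadjusted p under 0.05, against 6.01% of all genes. The median was 0.37, or 0.23 and 0.79 without 12-week replicate 1 and 2. Wars1, for tryptophan, read 10.21 and 10.01 after hepatectomy and 8.42 and 8.85 at 12 weeks (1.47 ± 0.23, adjusted p = 0.117). Eprs1, for glutamate and proline, read 12.34 and 12.32 against 11.17 and 11.22. Cars1, for cysteine, was the exception, at 8.56 and 8.36 against 8.98 and 8.94.

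Glutathione S-transferases, which conjugate reactive compounds, lay the other way. Of 16 genes, 14 had a difference below 0 and 8 (50%, against 15.2% of all genes) had both operated livers below both 12-week livers, with a median of -0.48. In limma 0 passed the test and 4 had an unadjusted p under 0.05, against 6.01% of all genes. Gstm7 read 7.84 and 7.40 against 9.12 and 9.77 (-1.83 ± 0.31, adjusted p = 0.151), and Gsta3 7.44 and 8.16 against 9.29 and 9.85. Similar members can share signal.

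Some genes that separate the ages, picked after their values were seen, had the operated livers near the 12-week livers. A1bg read 12.02 and 12.42 after hepatectomy and 11.85 and 12.66 at 12 weeks, against 6.29 and 6.27 at 4 weeks and 5.40 and 5.54 at 2 weeks. Cyp3a2 was low in both, at 6.11 and 5.44 and at 6.80 and 6.22, against 12.36 and 12.51 at 4 weeks. The imprinted RNA H19 read 6.35 and 6.65 and 7.23 and 7.21, against 11.80 and 10.45 at 4 weeks. Other such genes, A2m, Arhgef19, Cryl1 and Car3, had them nearer to the 2-week livers, where Car3 read 9.71 and 7.64.

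The 12-week livers parted at single genes. RT1-N2, a class I histocompatibility gene, read 11.59 and 6.02 on them, and 10.50 and 10.02 after hepatectomy, against 5.90 to 6.35 on the other 4 arrays. Ubd, a ubiquitin-like gene, read 5.08 and 9.56.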
